A study of Mus musculus with 4 samples.

Results

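The nuclear genes for the mitochondrial respiratory chain and the ATP synthase were followed in CD8 T cells sorted from mouse spleen. Members were the protein-coding genes whose symbol begins with Ndufa, Ndufb, Ndufc, Ndufs, Ndufv, Uqcr, Cox4i, Cox5, Cox6, Cox7, Cox8 or Atp5, together with Sdha, Sdhb, Sdhc, Sdhd and Cyc1. The rule goes by name and biotype and uses no values, but it was chosen with earlier results of these data known. It took 89 of the 15466 genes in the table. Of these, 77 encode structural subunits of the 5 complexes: 36 of complex I, 4 of complex II, 9 of complex III, 11 of complex IV and 17 of complex V. The other 12 are 8 complex I assembly factors (Ndufaf1 to Ndufaf8), 2 near copies of a complex I gene (Ndufb4b and Ndufb4c), the testis isoform Cox6b2 and Cox7a2l, a factor that joins complexes III and IV.

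Complexes I to IV pass electrons, taken from NADH at complex I and from succinate at complex II, through ubiquinone, complex III and cytochrome c to oxygen at complex IV. Complexes I, III and IV pump protons across the inner mitochondrial membrane, and complex V, the ATP synthase, uses their return to make ATP. Most subunits are encoded in the nucleus and imported, while a small core set is encoded on mitochondrial DNA. Memory CD8 T cells are known for a larger respiratory capacity than naive cells, and IL-15 is a cytokine known to promote it.

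The study compared naive and virtual memory CD8 T cells with and without cytokine treatment, by stranded poly(A) mRNA sequencing. Virtual memory cells are CD8 T cells with memory traits that arise without known encounter with foreign antigen. All mice were C57BL/6, and spleen CD8 cells were bead-enriched and sorted as CD44hiCD49d- for virtual memory and CD44-CD49d- for naive. The groups were IL-15C virtual memory and IL-15C naive cells, taken from mice given IL-15C (IL-15 in complex with its receptor chain IL-15Ra) 4 times a week, and untreated virtual memory and untreated naive cells, taken from mice that received PBS on that schedule, which the labels call wild type. Each group had 1 library. The titles give 3 mice per group, and whether their cells were pooled is not stated, nor are the animals' age and the number of weeks.

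The 4 libraries held 43862816 to 48950547 reads in genes. The CD8 T cell markers Cd3d, Cd3e, Cd8a and Cd8b1 summed to 3115 to 4258 CPM, reads relative to the library's total, in the 4 libraries. Of 31 markers of 6 other cell types (dendritic, B, myeloid, CD4 T, NK or gamma-delta T, and erythroid) 20 were in the table. Among those not analysed here are the defining genes Ms4a1, Pax5, Cd4, Ncr1 and Adgre1. The 20 summed to 102 CPM in IL-15C virtual memory, 42.7 CPM in IL-15C naive, 292 CPM in untreated virtual memory and 34.0 CPM in untreated naive cells. The untreated virtual memory library therefore stands apart, mainly through dendritic cell markers, at 32.3, 7.35, 180 and 4.66 CPM in the same order. The 6 proliferation genes, among them Mki67 and Top2a, summed to 4864, 1909, 536 and 223 CPM in that order. These lists move with the contrasts below, and their part in the results was not tested. In a sorted bulk sample, fewer cells of a type and less RNA per cell cannot be told apart.

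Levels are CPM after TMM scaling, a factor per library that sets most genes level, and genes are compared with each other only in TPM, which is per length. A difference is a log2 ratio of scaled counts with a 95% interval. With 1 library per group, a ratio of 2 libraries was given no test, and its interval covers counting error only. A gene is called higher or lower where it differs at least 1.5-fold (0.58 on the log2 scale) with the interval clear of no difference. Of the members, 88 had enough reads to be compared. Cox6b2 did not, with 21 reads in IL-15C virtual memory, 17 in IL-15C naive, 12 in untreated virtual memory and 11 in untreated naive cells.

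Together the 89 members took 1.14% of the reads in IL-15C virtual memory cells, 0.913% in IL-15C naive cells, 0.672% in untreated virtual memory cells and 0.643% in untreated naive cells. The 2 IL-15C libraries were above both untreated ones, and the 2 untreated ones lay close together. The order was shared by most members: 77 of the 89 members, and 71 of the 77 structural subunits, were highest in IL-15C virtual memory, next in IL-15C naive and lower in both untreated libraries. Untreated naive was the lowest library for 64 structural subunits and untreated virtual memory for the other 13. These orders were not counted over all genes, so whether they are particular to the members was not tested. Summed per transcript length, complex V was the largest, with 9077 TPM in IL-15C virtual memory, 6600 TPM in IL-15C naive, 4941 TPM in untreated virtual memory and 4668 TPM in untreated naive cells. Its summed CPM were 5201, 3635, 2596 and 2378 in the same order. Such sums also depend on the number of subunits. Per transcript length, complex IV and V subunits stood above those of complex I in every library: the median level in IL-15C virtual memory cells was 528 TPM for complex IV, 481 TPM for complex V and 139 TPM for complex I, and 241, 240 and 84.7 TPM in untreated naive cells. The subunit with the highest TPM among all structural members was Atp5b, the catalytic beta subunit of the ATP synthase, at 1204, 731, 646 and 642 TPM in IL-15C virtual memory, IL-15C naive, untreated virtual memory and untreated naive cells.

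**Figure D1:**
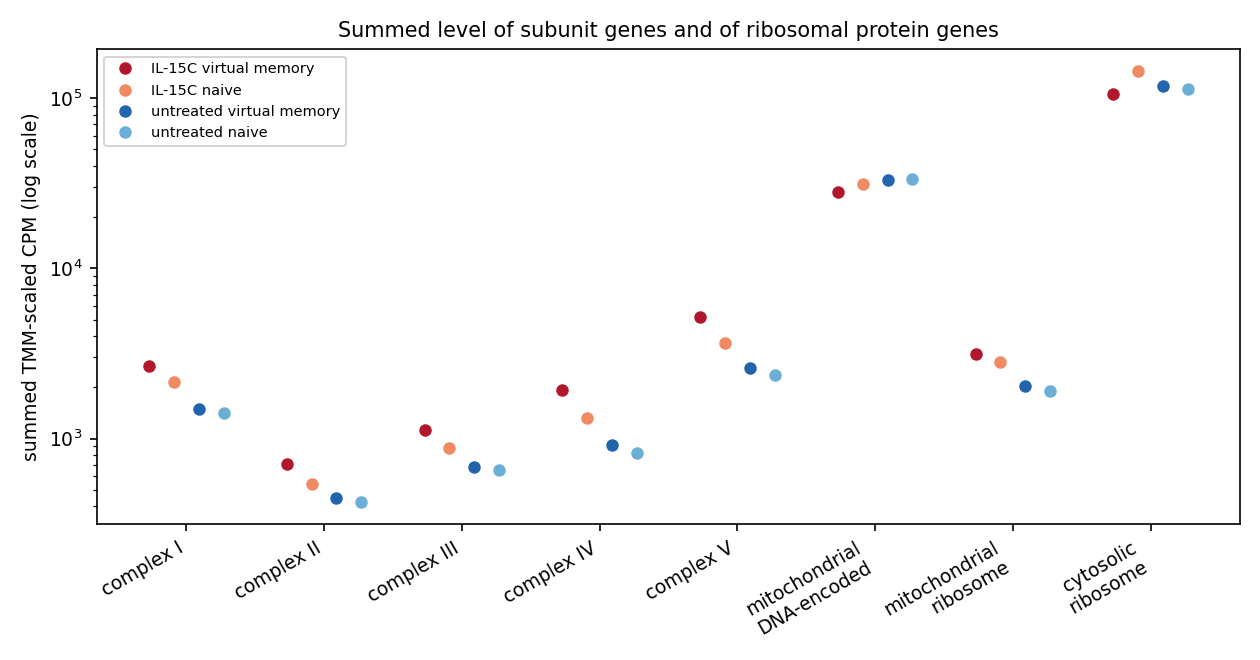
Summed TMM-scaled CPM (log scale) of the structural subunits of complexes I to V, of the 13 subunits encoded on mitochondrial DNA and of 2 ribosomal protein lists, with 1 point per library. In each of the 5 complexes the points fall in the order IL-15C virtual memory, IL-15C naive, untreated virtual memory, untreated naive, while the mitochondrial DNA-encoded genes run the other way, at 28186 CPM in IL-15C virtual memory and 33403 CPM in untreated naive cells.

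IL-15C virtual memory against untreated virtual memory cells gave the largest member differences. Of 88 members, 72 were called higher and 1 lower, where 21.5% of all 12370 compared genes were called higher and 24.3% lower. The members' median log2 ratio was 0.91, against -0.04 over all genes, and their middle range (0.68 to 1.10) was narrower than that of all genes (-0.57 to 0.48). All 77 structural subunits had a ratio above 0, and 25 of them lay above 2-fold with their whole interval, where 8.6% of all genes did. By that stricter limit 0 members were lower, where 8.83% of all genes were. By complex the medians were 0.87 for I, 0.82 for II, 0.75 for III, 1.14 for IV and 1.04 for V, with 31 of 36, 3 of 4, 6 of 9, 11 of 11 and 17 of 17 called higher. Within complexes the subunits spread over more than the complexes differed: complex III alone ran between 0.37 and 1.43.

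**Figure D2:**
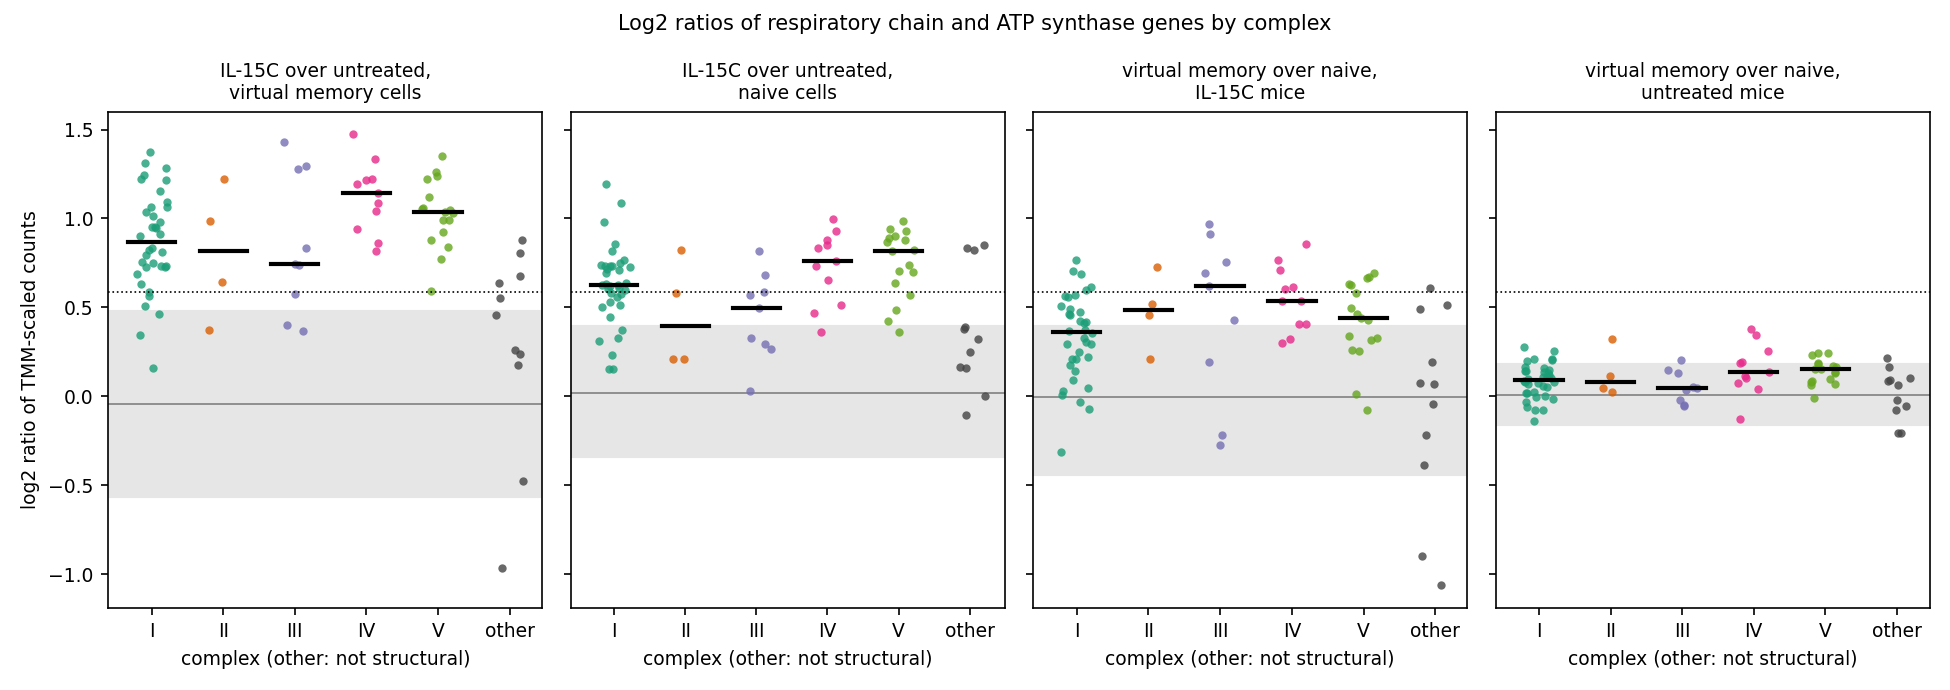
Log2 ratio of each compared member (points) by complex in the 4 comparisons, members that are not structural subunits in a column of their own, with the complex median (bar), the 1.5-fold limit (dotted line) and the median and middle range of all compared genes (grey line and band). The structural subunits of complexes IV and V lie wholly above the 1.5-fold limit for IL-15C in virtual memory cells, with medians of 1.14 and 1.04, and no member reaches it for virtual memory over naive cells of untreated mice.

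In complex I, the 7 nuclear core subunits, among them those with the flavin and the iron-sulfur clusters, had a median of 0.75 and the 29 accessory subunits one of 0.90. Ndufv1, which binds NADH, had 113 CPM in the IL-15C virtual memory library and 60.0 CPM in untreated virtual memory cells, a log2 ratio of 0.91 (interval 0.84 to 0.98). Ndufs7, an iron-sulfur subunit next to the ubiquinone site, had 44.7 CPM in IL-15C and 35.2 CPM in untreated virtual memory cells, a ratio of 0.34 (0.25 to 0.44) that was not called. The accessory subunit Ndufb2 had 33.6 CPM in IL-15C and 12.9 CPM in untreated virtual memory cells, the highest ratio of the complex at 1.37 (1.24 to 1.52). Ndufa6, an accessory subunit of the LYR family, was at the other end, with 69.3 CPM in IL-15C and 62.2 CPM in untreated virtual memory cells and a ratio of 0.16 (0.08 to 0.23). Core and accessory subunits thus overlapped widely.

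Complex II, which is also an enzyme of the TCA cycle, split by subunit. Sdhb, its iron-sulfur subunit, had 157 CPM in IL-15C and 67.03 CPM in untreated virtual memory cells (1.22, interval 1.16 to 1.29). Sdha, the flavoprotein to which Sdhb is joined, had 341 CPM in IL-15C and 264 CPM in untreated virtual memory cells (0.37, 0.34 to 0.41) and was not called. The membrane anchors Sdhc and Sdhd lay between, at 0.64 and 0.99, and were called higher. Per length the 2 catalytic genes changed places: Sdhb had the highest TPM of the complex in IL-15C virtual memory cells, at 250 TPM, and Sdha in untreated virtual memory cells, at 177 TPM.

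In complex III the small subunits fell into 2 sets. Uqcrq, a small membrane subunit, had 97.5 CPM in IL-15C and 36.1 CPM in untreated virtual memory cells (1.43, 1.35 to 1.52). Uqcr10 and Uqcr11, also small membrane subunits, had ratios of 1.30 and 1.28. Uqcrh, the hinge protein that helps cytochrome c bind, had 192 CPM in IL-15C and 149 CPM in untreated virtual memory cells, a ratio of 0.37 (0.32 to 0.41), and Uqcrb, which lies by a ubiquinone site, had a ratio of 0.40. Neither was called. The subunits with redox centres lay in the middle, the Rieske protein gene Uqcrfs1 at 0.75 and Cyc1, which encodes cytochrome c1, at 0.74, and the core protein genes Uqcrc1 and Uqcrc2 at 0.83 and 0.57.

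All 11 complex IV subunits were called higher, between Cox4i1 at 0.82 and Cox7a2 at 1.47. Cox5b, a matrix-side subunit that binds zinc, had 174 CPM in IL-15C and 69.1 CPM in untreated virtual memory cells (1.33, 1.27 to 1.39), and Cox5a had 148 and 63.6 CPM in the same order (1.22). Ndufa4, named for complex I but now placed in complex IV, had a ratio of 1.22, within the complex IV range. In the ATP synthase the ratio ran between 0.59 and 1.35. The 5 genes of the catalytic head and central stalk (Atp5a1, Atp5b, Atp5c1, Atp5d, Atp5e) lay between 0.88 and 1.05, the narrowest range of the ATP synthase modules, with Atp5b at 1311 CPM in IL-15C and 633 CPM in untreated virtual memory cells. The extremes were both c-ring genes, which encode an identical mature protein: Atp5g3 had 251 CPM in IL-15C and 98.1 CPM in untreated virtual memory cells (1.35) and Atp5g1 had 79.7 and 52.9 CPM in the same order (0.59). The 5 small membrane subunits, among them Atp5k, which takes part in dimer formation, had a median of 1.22, with Atp5mpl lowest at 0.77.

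IL-15C naive against untreated naive cells gave smaller differences for most members. Of 88 members, 51 were called higher and 0 lower, where 16.4% of all 12174 compared genes were called higher and 13.5% lower. The members' median was 0.63 and that of all genes 0.02. With the trend of the ratio over transcript length subtracted, as described further on, 4 members were higher and the median was 0.28. Complex medians were 0.63 for I, 0.40 for II, 0.49 for III, 0.76 for IV and 0.82 for V, and 23 of 36, 1 of 4, 3 of 9, 8 of 11 and 13 of 17 subunits were called higher. Only Ndufc2 and Ndufv2, both in complex I, lay above 2-fold with their whole interval, where 4.95% of all genes did, and 0 were lower by that limit, where 1.99% of all genes were. Ndufc2, an accessory membrane subunit, had 46.3 CPM in IL-15C and 20.3 CPM in untreated naive cells (1.19, 1.09 to 1.30). Ndufv2, a core iron-sulfur subunit beside Ndufv1, had 94.2 CPM in IL-15C and 44.4 CPM in untreated naive cells (1.09, 1.01 to 1.16). At the low end Cyc1 had 71.2 CPM in IL-15C and 69.8 CPM in untreated naive cells, a ratio of 0.03 (-0.04 to 0.10) that was within counting error.

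The ATP synthase modules kept the order of their medians in virtual memory cells, where the catalytic head and stalk had 0.99, the peripheral stalk 1.01 and the c-ring 1.12. In naive cells the head and stalk had 0.48, against 0.79 for the peripheral stalk that holds the head still, 0.87 for the c-ring and 0.90 for the small membrane subunits. Atp5a1, the non-catalytic alpha subunit, had 684 CPM in IL-15C and 532 CPM in untreated naive cells (0.36), and Atp5b had 811 and 605 CPM in the same order (0.42). Atp5h, of the peripheral stalk, had 238 CPM in IL-15C and 129 CPM in untreated naive cells (0.89). The length trend is not subtracted in these module medians and ratios. With it subtracted, the naive-cell ratios were 0.31 for Atp5a1, 0.29 for Atp5b and 0.45 for Atp5h, so these genes lay closer together. Module medians were not taken after the subtraction, so whether their order holds was not tested. The members called higher with IL-15C in both subsets numbered 47, which is 65.3% of the 72 in virtual memory cells and 92.2% of the 51 in naive cells. At most 4 of these are called higher in naive cells once the length trend is subtracted. The overlap was not counted over all genes, so whether its size is particular to the members was not tested.

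The layout of the study allows 1 fit of all 4 libraries, with subset and treatment as its terms, for the IL-15C difference common to both subsets. It has 1 residual degree of freedom, it counts the difference between the subsets' responses as spread, and it was added after the data were seen. Its p-values also rest on spread that edgeR borrows across all genes. Spread between mice of a group is not measured, since each group has 1 library. For IL-15C over untreated, 60 of 88 members were higher and 0 lower at an adjusted p under 0.05 (edgeR's quasi-likelihood test, Benjamini-Hochberg over 12617 genes), where 11.7% of all genes were higher and 9.26% lower. The members' median log2 difference was 0.79. With subset left out of that edgeR fit, 0 of 88 members and 0 of all genes passed, and 65 members had an unadjusted p under 0.05. For virtual memory over naive cells, with treatment as a term, 0 of 88 members passed by edgeR and 6 had an unadjusted p under 0.05, where 5.68% of all genes were higher and 2.29% lower. Transcript length is no term of these fits.

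The difference between the responses, the log2 ratio in virtual memory cells minus that in naive cells, has no library in common between its 2 terms. It was above 0 for 74 of 88 compared members, where 5405 of all 11927 genes compared were. The counting interval lay above 0 for 62 members and below 0 for 9, and such intervals were not counted over all genes. The median of the difference was 0.28 over the members and -0.06 over all genes. By complex the median difference was 0.30 for I, 0.41 for II, 0.57 for III, 0.30 for IV and 0.28 for V. Complex III held the widest range of the structural subunits: Uqcr10 at 0.97, Uqcrq at 0.94, Cyc1 and Uqcr11 at 0.71, against -0.42 for Uqcrb and -0.22 for Uqcrh. All 11 complex IV and all 4 complex II subunits had an interval above 0. In complex I the difference lay between 0.75 for Ndufb2 and -0.34 for Ndufa6, and in complex V between 0.63 for Atp5b and -0.21 for Atp5mpl.

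**Figure D3:**
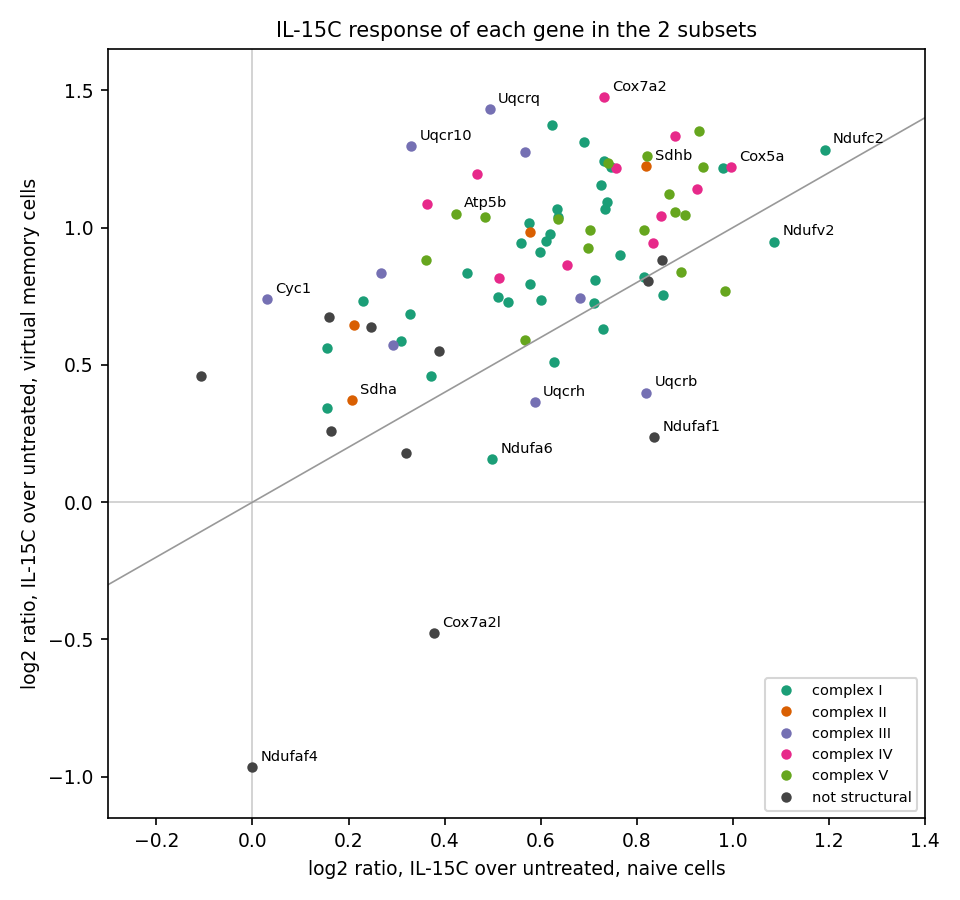
Log2 ratio of IL-15C over untreated in virtual memory cells (vertical) against that in naive cells (horizontal) for the 88 compared members, coloured by complex, with the line of equal response. Most points lie above the line; Uqcr10, Uqcrq and Cyc1 lie far above it, and Ndufaf4 and Cox7a2l lie below 0 in virtual memory cells, at -0.96 and -0.48.

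Virtual memory against naive cells from IL-15C mice, a comparison that shares its libraries with the 2 above, had 22 members called higher and 2 lower, where 17.2% of all 12206 compared genes were called higher and 19.5% lower. The members' share called higher, 22 of 88, is nearer the background than in the IL-15C comparisons, but their median was 0.42, against -0.01 over all genes. Past 2-fold with the whole interval, 0 members were higher and 1, Cox7a2l, was lower, where 6.52% of all genes were higher and 5.91% lower. Complex III had the highest median, 0.62, with 5 of 9 called higher, followed by IV at 0.54 (5 of 11), II at 0.49 (1 of 4), V at 0.44 (5 of 17) and I at 0.36 (5 of 36). Uqcrq had 97.5 CPM in the virtual memory library and 49.7 CPM in the naive library (0.97, 0.90 to 1.05) and Uqcr10 had 84.7 CPM in the virtual memory library and 44.99 CPM in the naive library (0.91). Cox8a, a small membrane subunit of complex IV, had 212 CPM in the virtual memory library and 117 CPM in the naive library (0.86). The 7 complex I core subunits had a median of 0.17, and Ndufs8 alone among them was called higher, at 0.60. Of the structural subunits, Ndufa6 (-0.32), Uqcrh (-0.27) and Uqcrb (-0.22) were the lowest, and none of them passed the limit.

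In untreated mice 0 of 88 members were called in either direction, where 9.52% of all 12259 compared genes were called higher and 5.07% lower. The same held past 2-fold, where 4.81% of all genes were higher and 1.11% lower. The median of the members was 0.10, against 0.008 over all genes, and 70 of the 88 member ratios were above 0. The largest was Cox5a, a matrix-side subunit of complex IV, with 63.6 CPM in the virtual memory library and 48.9 CPM in the naive library (0.38, 0.30 to 0.46). Cox6b1 followed at 0.34 and Sdhb at 0.32, and the lowest structural subunit was Ndufa2 at -0.14. Complex medians lay between 0.05 for III and 0.15 for V. The untreated virtual memory library is the one with 292 CPM of markers of other cell types, against 34.0 CPM in the untreated naive library, and the part of these in the ratios was not tested.

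The members called lower were not structural subunits, and none of the 77 was called lower in any of the 4 comparisons. Cox7a2l, also called SCAF1, links complexes III and IV into supercomplexes, and in C57BL/6 mice it is known to encode a shortened protein. It had 245 CPM in IL-15C virtual memory, 513 CPM in IL-15C naive, 342 CPM in untreated virtual memory and 395 CPM in untreated naive cells. IL-15C virtual memory was the lowest library and IL-15C naive the highest. The IL-15C log2 ratio was -0.48 (-0.51 to -0.44) in virtual memory and 0.38 (0.35 to 0.40) in naive cells, neither past the limit, and virtual memory over naive in IL-15C mice was -1.06 (-1.10 to -1.03). Its paralog Cox7a2, a structural subunit of complex IV, had 122, 80.03, 44.0 and 48.1 CPM in the 4 libraries in the same order. The paralogs thus parted in IL-15C virtual memory cells, where Cox7a2 was at its highest level and Cox7a2l at its lowest.

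Ndufaf4, an assembly factor for complex I, had 15.1 CPM in IL-15C virtual memory, 28.3 CPM in IL-15C naive, 29.6 CPM in untreated virtual memory and 28.3 CPM in untreated naive cells. The first library was the low one, and the other 3 lay close together. Its IL-15C log2 ratio in virtual memory cells was -0.96 (-1.10 to -0.83), the lowest of all members, while that in naive cells was 0.00 (-0.11 to 0.11). The 8 assembly factors had medians of 0.36 and 0.35 for IL-15C in virtual memory and naive cells, below each complex in virtual memory cells. Ndufaf2 had ratios of 0.88 and 0.85, and Ndufaf7, another assembly factor, had 0.80 and 0.82. Ndufaf1, which acts on membrane intermediates of complex I, had 0.24 in virtual memory and 0.84 in naive cells. Of a further 45 assembly factors of complexes I to V outside the naming rule, the 44 compared had medians of 0.31 in each subset.

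**Figure D4:**
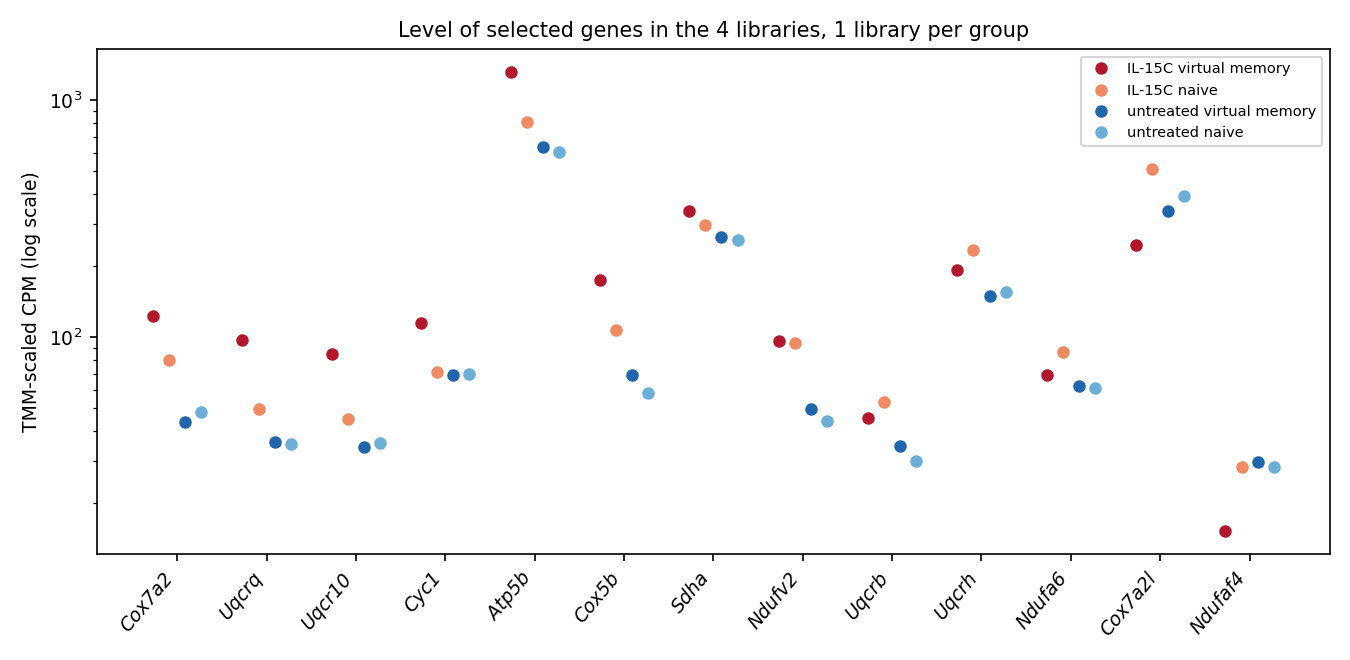
TMM-scaled CPM (log scale) of 13 members in the 4 libraries, 1 point per library and group. Most members are highest in IL-15C virtual memory cells, Uqcrb, Uqcrh and Ndufa6 are highest in IL-15C naive cells, and Cox7a2l (245 CPM) and Ndufaf4 (15.1 CPM) are lowest in IL-15C virtual memory cells.

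Start-site sequences are shown for the paralog pair that parted, to let them be set side by side. They are RefSeq sequences on GRCm38.p6, 180 bases before to 20 after the annotated start, Cox7a2 at chr9:79759834-79760033 and Cox7a2l at chr17:83514314-83514513, both on the minus strand.
Cox7a2: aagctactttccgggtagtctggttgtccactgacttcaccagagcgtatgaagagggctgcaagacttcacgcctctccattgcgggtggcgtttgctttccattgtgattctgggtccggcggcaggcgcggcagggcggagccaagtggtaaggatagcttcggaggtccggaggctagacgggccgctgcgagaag
Cox7a2l: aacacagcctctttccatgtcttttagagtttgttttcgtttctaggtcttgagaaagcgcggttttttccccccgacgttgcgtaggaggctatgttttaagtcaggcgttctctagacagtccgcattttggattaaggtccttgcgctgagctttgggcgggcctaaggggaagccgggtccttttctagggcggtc
Neither holds any of the motif letters searched below, and so both are in lower case throughout.

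Motif letters were counted over 250 bases before to 50 after the start, on both strands, for the 74 members with a promoter in the RefSeq table used. GC followed directly by GCATGCGC, the letters bound by NRF1, a known regulator of respiratory chain genes, was in 7 members, or 9.46%, against 1.07% of 27025 genes and 2.62% of 8654 compared coding genes. GCATGCGC on its own or inside the longer letters was in 16.2%, 3.05% and 6.55% of these. CCGGAAG, letters of the ETS family that includes GABP, was in 25.7% of members, 9.93% of all genes and 22.5% of compared coding genes. AAGATGG followed directly by CGGC, letters of YY1, was in 6.76%, 0.755% and 2.05%, and AAGATGG on its own or inside the longer letters in 16.2%, 7.28% and 8.87%. At least 1 of GCATGCGC, CCGGAAG and AAGATGG was in 48.6% of members, 18.6% of all genes and 33.7% of compared coding genes. From the members with the full NRF1 letters 3 are shown because they moved differently with IL-15C in virtual memory cells: Cox6a1 (log2 ratio 1.19) and Ndufa11 (1.22) were called higher and Ndufaf4 (-0.96) lower. Capitals mark GCATGCGC on either strand, which overlaps itself in the full letters, and in Cox6a1 also the ETS letters, which run on the opposite strand; they lie at chr5:115348939-115349138 (minus strand), chr17:56717582-56717781 (plus strand) and chr4:24897903-24898102 (plus strand).
Cox6a1: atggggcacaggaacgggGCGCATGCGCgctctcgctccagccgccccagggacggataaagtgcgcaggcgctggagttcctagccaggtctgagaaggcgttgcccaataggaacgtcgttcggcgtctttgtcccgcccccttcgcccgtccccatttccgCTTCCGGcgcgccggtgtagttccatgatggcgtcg
Ndufa11: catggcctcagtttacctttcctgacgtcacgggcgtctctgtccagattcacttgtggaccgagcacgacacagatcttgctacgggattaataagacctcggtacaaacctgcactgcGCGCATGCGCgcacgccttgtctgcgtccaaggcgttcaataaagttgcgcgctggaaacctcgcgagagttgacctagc
Ndufaf4: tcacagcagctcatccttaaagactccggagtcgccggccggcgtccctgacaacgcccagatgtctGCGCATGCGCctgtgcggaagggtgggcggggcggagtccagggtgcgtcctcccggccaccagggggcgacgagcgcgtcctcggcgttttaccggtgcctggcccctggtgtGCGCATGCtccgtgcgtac
The letters are a description of these windows and do not mark a bound site.

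Transcript length was examined because the members are short and IL-15C ratios ran with length over all genes. The members' median length was 809 bases, with 52 of 87 at 1000 bases or less, against 2833 bases over all compared genes. Over all genes the Spearman correlation of the log2 ratio with length was -0.25 for IL-15C in virtual memory cells (10875 genes), -0.45 for IL-15C in naive cells (10705 genes), 0.02 for virtual memory over naive in IL-15C mice and -0.12 in untreated mice. Genes share libraries and are not independent, so these values only describe the pattern. Among the 86 members with a length the values were -0.40, -0.36, -0.17 and -0.07. The shorter members, 43 in number, had medians of 1.05 and 0.73 for IL-15C in virtual memory and naive cells, and the longer 43 had 0.79 and 0.58.

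To set the members beside genes of their own length, the running median of all genes ordered by length was subtracted. The members' median was then 0.69 for IL-15C in virtual memory cells, 0.28 for IL-15C in naive cells, 0.43 for virtual memory over naive in IL-15C mice and 0.04 in untreated mice. The number of members higher by the 1.5-fold rule was then 52, 4, 21 and 0. The naive-cell response thus lost most of its calls, while 73 of 86 members still lay above the running median, as did 81 of 86 in virtual memory cells. Other coding genes between the 5th and the 95th percentile of the members' lengths (420 to 2659 bases) were taken without the subtraction. They had a median of 0.12 for IL-15C in virtual memory cells, with 26.0% called higher, and of 0.24 in naive cells, with 22.7% called higher. The share of all genes called higher alone after the subtraction was not counted. In naive cells 2221 of the 10705 genes with a length were called in either direction after it. Beside that share, the 4 of 86 members called higher there are no excess.

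For IL-15C in each subset the medians of the complexes drew closer after the subtraction. In virtual memory cells they became 0.63 for I, 0.72 for II, 0.57 for III, 0.80 for IV and 0.74 for V, and in naive cells 0.27, 0.26, 0.13, 0.32 and 0.40. Complex II, whose transcripts have the longest median length at 2066 bases, moved least in virtual memory cells, and complex IV, with the shortest at 618 bases, moved most. For virtual memory over naive in IL-15C mice the medians became 0.38, 0.48, 0.67, 0.56 and 0.49. Complex III then had the highest median in that comparison and the lowest in both IL-15C comparisons.

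**Figure D5:**
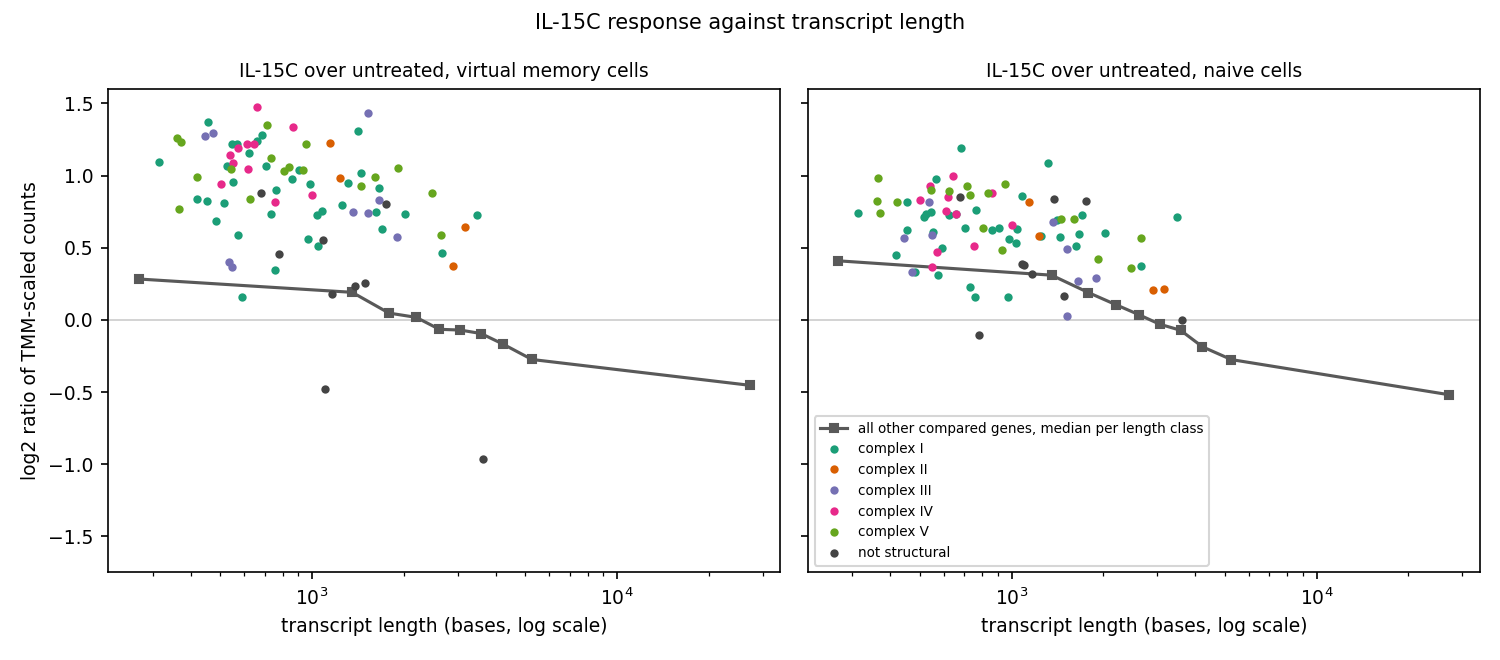
Log2 ratio of IL-15C over untreated against transcript length (bases, log scale) for the 86 members with a length, coloured by complex, with the median of all other compared genes in 10 length classes (squares, at the geometric middle of each class). The members lie above the squares in virtual memory cells, with exceptions that include Cox7a2l and Ndufaf4, and closer to them in naive cells.

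The subunits encoded on mitochondrial DNA had medians near 0. All 13 were in the table, and none was called higher or lower for IL-15C in virtual memory cells, with a median of -0.16. Over all genes 21.5% were called higher and 24.3% lower there. COX1, the catalytic subunit of complex IV, had 11054 CPM in IL-15C virtual memory, 13531 CPM in IL-15C naive, 13920 CPM in untreated virtual memory and 14627 CPM in untreated naive cells. In IL-15C naive cells 2 were called lower, ATP8 (-1.27) and ND4L (-0.89), both short genes that overlap a neighbour on the same strand, and the median was -0.04. For virtual memory over naive in IL-15C mice the same pair was called higher, ATP8 at 1.07 and ND4L at 0.82, and 0 were called lower. Over all genes 13.5% were called lower in the first of these comparisons and 17.2% higher in the second. Both counts of 2 of 13 are close to these shares. The nuclear structural genes made up 29.2% of the reads of nuclear and mitochondrial DNA-encoded subunits together in IL-15C virtual memory, 21.4% in IL-15C naive, 15.7% in untreated virtual memory and 14.6% in untreated naive cells.

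Other genes of mitochondria moved in part with the members. In this paragraph the length trend was not subtracted. Over all genes, 21.5% were called higher for IL-15C in virtual memory and 16.4% in naive cells, and 17.2% for virtual memory over naive in IL-15C mice. Of 78 mitochondrial ribosomal proteins, 45 were called higher for IL-15C in virtual memory and 36 in naive cells (medians 0.65 and 0.56). For virtual memory over naive in IL-15C mice 4 of the 78 were called higher (median 0.14), a smaller share than over all genes. Of 14 TCA cycle genes, 7 were called higher for IL-15C in virtual memory cells (median 0.56), led by Fh1, fumarase, at 1.17 and Cs, citrate synthase, at 1.02. For virtual memory over naive in IL-15C mice 6 of the 14 were higher, and Idh2, the NADP-dependent isocitrate dehydrogenase, was lower at -1.21. Vdac1, the outer membrane channel, had an IL-15C ratio of 1.46 and Cycs, cytochrome c, one of 0.90 in virtual memory cells. Regulators did not move as a group: 19 genes of biogenesis and mitochondrial DNA expression had medians of -0.15 and -0.12 for IL-15C in virtual memory and naive cells. Ppargc1b, a coactivator of respiratory genes, was lower with ratios of -1.28 and -0.95, and Tfam, which packages mitochondrial DNA, was called higher in naive cells at 0.68. Nrf1, which encodes the NRF1 regulator, was the highest of the 19 for IL-15C in virtual memory cells, at 0.40, and was not called. For virtual memory over naive in IL-15C mice Nrf1 was also the highest of them, at 0.64. The 76 cytosolic ribosomal proteins had medians of -0.17 and 0.37 for IL-15C in virtual memory and naive cells.

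The authors' deposited table gives a signed fold change and an adjusted p-value for each gene, without naming the test. For IL-15C in virtual memory cells the authors' deposited table had 75 members higher and 2 lower at an adjusted p under 0.05, where 43.4% of all genes passed. For IL-15C in naive cells the authors' deposited table had 59 higher and 0 lower, where 26.1% of all genes passed. For IL-15C mice the authors' deposited table, which puts naive over virtual memory, had 2 members higher and 30 lower in naive cells, where 33.2% of all genes passed, and for untreated mice it had 0 members at that limit, with a smallest adjusted p of 0.358, where 10.5% passed. Its comparison of IL-15C with untreated over both subsets, the only one with 2 libraries a side, had 0 members at that limit, with a smallest adjusted p of 0.0926, where 3.25% of all genes passed.

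Some members share reads or sequence with other genes. Ndufb4, Ndufb4b and Ndufb4c are near copies whose counts are uncertain, and 28 members have an exon that overlaps a gene on the other strand. The libraries were stranded, but the sources used here do not say whether counting used the strand.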

How the data were processed

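The 4 groups of mouse spleen CD8 T cells had 1 RNA-seq library each. The submitters' processing notes give the build mm10 and, in no stated role, the tools HISAT2 2.1.0, StringTie 2.1.3b, SAMtools 1.9, Trimmomatic 0.38 and FastQC 0.11.7, besides R 4.2.2 with edgeR. Per the file headers, the authors deposited whole-number read counts per gene, not normalized. The authors also deposited FPKM and TPM values, which are scaled to transcript length, and normalized columns holding the log2 of TMM-scaled CPM plus 1. They further deposited signed fold changes, a score that is negative where lower, with adjusted p-values. A further 10 columns of per-sample means were not used. No count is under 1, so genes without a read in any 1 library were not analysed here. The ctrl columns were read as untreated.

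Counts were scaled with TMM factors of 0.946 (IL-15C virtual memory), 0.996 (IL-15C naive), 1.02 (untreated virtual memory) and 1.04 (untreated naive), from edgeR 4.0.16 in R 4.3.3. Log2 ratios used a prior count of 2. Genes with at least 20 reads over both libraries and 1 CPM in the higher one were compared. Intervals of a ratio are 95% Clopper-Pearson intervals, exact and conditional on the sum of both counts. They hold counting error alone: without molecular identifiers, reads are not independent molecules. The median interval width over members was 0.140 to 0.172 log2 units. Lengths are GENCODE M21 transcripts on GRCm38, matched by RefSeq accession, for 87 members, and the running median used 501 genes. The 4 libraries were also fitted together with edgeR's quasi-likelihood test, subset and treatment as terms and Benjamini-Hochberg adjustment, over genes with at least 20 reads in all and 1 CPM in the highest library. Ratios and calls were tested on simulated counts with counting error alone. The fit of all 4 libraries was tested on simulated counts with less spread, larger effects than the members' median and no subset difference. These simulations check the code and do not measure error rates for these data. Alternatives were DESeq2 1.42.0 size factors, library totals, deposited TPM, other filters, prior counts, lengths and a 2-fold limit.

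Members, gene lists and the rule for named genes were chosen with earlier results of these data known. The rule named, per comparison, the highest and lowest structural subunit of each complex, the 5 highest and 5 lowest members, those past 2-fold, the Sdh genes, catalytic subunits, isoform pairs, and extremes of the other lists. Members named in the text outside it, such as Ndufaf7, were chosen after their values were seen.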

Additional observations from a re-analysis of the deposited data

Results flagged for a closer look

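Each gene here had counting intervals clear of 0 on opposite sides in 2 comparisons of the same kind, with 1 library per group, so the difference between them was not tested. Cox7a2l, the supercomplex factor, had an IL-15C log2 ratio of -0.48 in virtual memory and 0.38 in naive cells. The other 6 differed in the ratio of virtual memory over naive cells between IL-15C mice and untreated mice. Cox7a2 had 0.61 in IL-15C mice and -0.13 in untreated mice, and Ndufb10, a complex I accessory subunit, had 0.42 and -0.079. Ndufa2, also an accessory subunit of complex I, had 0.14 in IL-15C mice and -0.14 in untreated mice. The remaining genes ran the other way: Uqcrb had -0.22 in IL-15C mice and 0.20 in untreated mice, the assembly factor Ndufaf1 -0.39 and 0.21, and the ATP synthase subunit Atp5mpl -0.075 and 0.14. Of these ratios only the value of 0.61 for Cox7a2 passes 1.5-fold.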

How the results depend on the processing

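Of 217 alternative values, 189 stayed within the limits set for each and 27 moved. A further 1 came to the other side of 0 where its main value lay beyond counting error. Subtracting the length trend gave member medians of 0.28 for IL-15C in naive and 0.69 in virtual memory cells, 4 members higher and 2221 genes called in naive cells, and, as complex minus all members, -0.022 (II), 0.036 (IV) and 0.12 (V) in naive and 0.10 (IV) and 0.044 (V) in virtual memory cells. Complex II, below the members' median in virtual memory cells, came to 0.022 above it, since its transcripts are longer, and for virtual memory over naive in untreated mice it went to 0.014 above the members' median, against a main value of -0.021 within counting error, which makes 2 changes of sign. Lengths implied by counts and FPKM, an alternative chosen after seeing the data, gave 0.24 in naive and 0.58 in virtual memory cells. The deposited TPM, which shift the median of all genes by -0.21 in naive and -0.19 in virtual memory cells, gave 0.39 with 20 members higher in naive cells and 0.78 in virtual memory cells. Library totals, which shift all genes by -0.16 for IL-15C in virtual memory cells, gave 0.79 there, and 0.34 with 14 members higher for virtual memory over naive in IL-15C mice. Leaving out the 28 members with an opposite-strand overlap left 33 higher for IL-15C in naive cells. The 2-fold limit left 25 members and 2156 genes for IL-15C in virtual memory cells, 2 and 845 in naive cells, 0 and 1517 for virtual memory over naive in IL-15C mice, and 726 genes in untreated mice, where a 5 CPM filter left 998. The cause of the shifts was not tested where the construction does not show it. No direction of a member median changed under these alternatives. Depth limits Cox6b2, Ndufb4b and Ndufb4c most, which had 3.64 CPM or less. In the edgeR fit of all 4 libraries, leaving out subset, which pairs each treated library with the untreated one of its subset, left 0 of the 60 members higher for IL-15C. No paired analysis was possible because the labels give no replicate numbers, other than that fit with subset as a block, and with 1 library per group no replicate could be left out.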

Other observations

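Of 44 compared assembly factors outside the naming rule, 8 were called higher and 2 lower for IL-15C in virtual memory cells, where 21.5% and 24.3% of all genes were, and 12 were higher and 1 lower in naive cells, where 16.4% and 13.5% were. Cmc2, linked to complex IV assembly, had 39.6 CPM in IL-15C virtual memory, 21.6 CPM in IL-15C naive, 7.39 CPM in untreated virtual memory and 7.53 CPM in untreated naive cells, the highest IL-15C log2 ratio of the 44 factors in virtual memory cells at 2.42. Ttc19, a factor of complex III, had 8.33, 18.9, 23.6 and 29.6 CPM in the same order, the lowest ratio at -1.50. Sdhaf3, which helps to load the iron-sulfur clusters of Sdhb, had 1.80 CPM in IL-15C and 3.26 CPM in untreated virtual memory cells (-0.84), while Sdhb itself was at 1.22.

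In the synthesis of ubiquinone, the electron carrier between complexes I or II and III, Coq7 had 9.59, 6.97, 3.84 and 3.81 CPM in IL-15C virtual memory, IL-15C naive, untreated virtual memory and untreated naive cells, an IL-15C ratio of 1.31 in virtual memory cells. Coq8a, a kinase-like protein of the same pathway, had 5.95, 12.3, 15.5 and 14.1 CPM in that order, a ratio of -1.38. The 13 genes of ubiquinone synthesis and cytochrome c had a median of 0.19, against 0.91 for the members. Protein import genes had medians of 0.64 and 0.46 for IL-15C in virtual memory and naive cells, with Timm50, a receptor of the inner membrane translocase, at 1.22 and 0.67.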
